A study of Drosophila melanogaster with 2 samples.

Results

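The Odd-skipped family of Drosophila melanogaster holds 4 genes that encode C2H2 zinc finger proteins: odd, sob, drm and bowl. Summits of Tailless-GFP ChIP-seq were taken as near these genes when they lay within 20 kb of a gene body. This gave 20 of the 4045 summits in the authors' list thresholded by the irreproducible discovery rate, a measure of how alike peaks rank in replicates. It gave 97 of the 30000 summits called on the pooled replicates. The thresholded list held the 4045 strongest pooled summits, so being on it does not show that a summit ranked alike in both replicates. The list of replicate 1 gave 91 of its 30000 summits and that of replicate 3 gave 99 of 30000. Summits were chosen by their position relative to the genes and by no signal value, but the 4 genes were chosen with earlier results of these data known.

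The embryos were of strain 8T-GFP, which carries an insertion aimed at tll so that Tailless bears GFP at its C terminus. They were whole embryos of mixed sex, 0 to 4 h old, immunoprecipitated with an antibody to GFP after sonication. There was 1 group of 2 biological replicates, numbered 1 and 3, with no second condition or untagged group analysed here, so no test between groups was possible and values are given for both replicates. Whether the untagged tll copies were still present, and which promoter drove the tagged protein, is not given in the sources used here. Whole embryos mix cells that express tll with cells that do not, so fewer bound cells and less binding per cell cannot be told apart. The lists hold no expression values against which the labelled stage could be checked.

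Tailless is an orphan nuclear receptor of the terminal gap class, and it mostly acts as a transcriptional repressor at the ends of the embryo. The gene odd belongs to the pair-rule class and encodes a repressor that helps to place segment boundaries. Its neighbours sob and drm are expressed in patterns that resemble odd, and drm encodes a small protein that binds Lines and so relieves the inhibition of Bowl. The relation of Drumstick, Lines and Bowl patterns the hindgut and the foregut as well as leg joints.

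All 4 genes lie on chromosome arm 2L, here in dm6 coordinates. The gene drm (FBgn0024244) occupies positions 3539247 to 3548423 on the plus strand, sob (FBgn0004892) positions 3578013 to 3580769 on the minus strand and odd (FBgn0002985) positions 3604224 to 3606756 on the minus strand. The gaps between them measure 29589 bp from drm to sob and 23454 bp from sob to odd. The gene bowl (FBgn0004893) lies apart, 164943 bp beyond odd, at positions 3771700 to 3784121 on the plus strand. The annotation gives drm 2 start sites and bowl 4.

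The sequences at the strongest thresholded summit of each gene are printed here, together with the thresholded summits near the genes that have the Tailless word AAGTCA within 50 bp. Each covers 50 bp to either side of the summit on the plus strand of Release 6, and capitals mark any of 9 words searched on both strands, so that a word on the minus strand reads as its reverse complement.
odd, chr2L:3610654-3610754, strongest summit of the family: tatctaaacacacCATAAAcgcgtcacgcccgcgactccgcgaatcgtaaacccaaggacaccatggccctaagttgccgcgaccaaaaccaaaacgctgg
odd, chr2L:3608520-3608620, with AAGTCA: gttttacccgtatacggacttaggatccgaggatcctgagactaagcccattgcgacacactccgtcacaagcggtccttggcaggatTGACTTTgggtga
odd, chr2L:3609365-3609465, with AAGTCA: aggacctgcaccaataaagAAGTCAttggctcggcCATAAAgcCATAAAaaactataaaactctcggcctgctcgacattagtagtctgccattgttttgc
drm, chr2L:3549004-3549104, strongest summit of drm: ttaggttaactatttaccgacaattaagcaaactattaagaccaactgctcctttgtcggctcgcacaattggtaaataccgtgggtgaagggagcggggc
bowl, chr2L:3778694-3778794, strongest summit of bowl: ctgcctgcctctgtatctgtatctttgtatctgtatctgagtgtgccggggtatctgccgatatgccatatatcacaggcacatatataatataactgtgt
sob, chr2L:3580978-3581078, strongest summit of sob: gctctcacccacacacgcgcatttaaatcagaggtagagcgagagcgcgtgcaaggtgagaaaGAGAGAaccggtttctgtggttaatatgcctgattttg
The capitals are CATAAA, the reverse complement of the Caudal word TTTATG, in the strongest odd sequence. They are TGACTTT, the reverse complement of the longer Tailless word AAAGTCA, in the next. The third holds AAGTCA once and the Caudal word in 2 copies, and the sob sequence holds GAGAGA, the word of GAGA factor. The drm and bowl sequences hold none of the 9 words.

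Signal was concentrated upstream of odd. The signal value is the number that the authors' peak caller gave each summit, on an unstated scale. It was highest for the family at position 3610704, in intergenic sequence 3948 bp upstream of the odd start site. It was 922 in the pooled list (rank 153 of 30000), 478 in replicate 1 and 460 in replicate 3, or 8.87 ± 0.039 (SD, n = 2) as the mean of the log2 replicate values. Both replicates placed it near the top of their lists, at ranks 163 and 139.

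A further summit stood 4147 bp upstream of odd at position 3610903, inside the same called interval, with a pooled value of 724 and replicate values of 399.9 and 268. The smallest distance between summits in the pooled list is 199 bp, which is that between these 2, and 17.5% of all 29994 neighbouring pairs in the pooled list lie 190 to 230 bp apart, so whether the pair is 1 site or 2 was not tested. Nearer to the gene, the summit at position 3608570, 1814 bp upstream, had a pooled value of 597 with 359 in replicate 1 and 232 in replicate 3. It is the one with the longer Tailless word.

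The odd promoter itself carried signal, with a summit in the 5′ UTR 29 bp downstream of the start site at position 3606727, a pooled value of 469.7 and replicate values of 259.9 and 221. The weaker thresholded summits of odd were at positions 3615345, 3609415 and 3612040, at 8589, 2659 and 5284 bp upstream. Their pooled values were 374, 226 and 212. The first of them is nearer to the start site of Ugt36A1, a UDP-glycosyltransferase gene, at 3752 bp. At position 3609415 the replicates were far apart, with 74.6 in replicate 1 and 130.1 in replicate 3, and its rank in replicate 1 (7673) lay outside the 4045 strongest. The summit at position 3612040 also lay just outside them in replicate 1, at rank 4108. Of the 7 thresholded summits nearest to odd, 6 lay upstream, 1 in the gene body and 0 downstream. The thresholded summits at positions 3584330, 3584530 and 3588597 also lay within 20 kb downstream of odd, but nearer to sob.

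**Figure D1:**
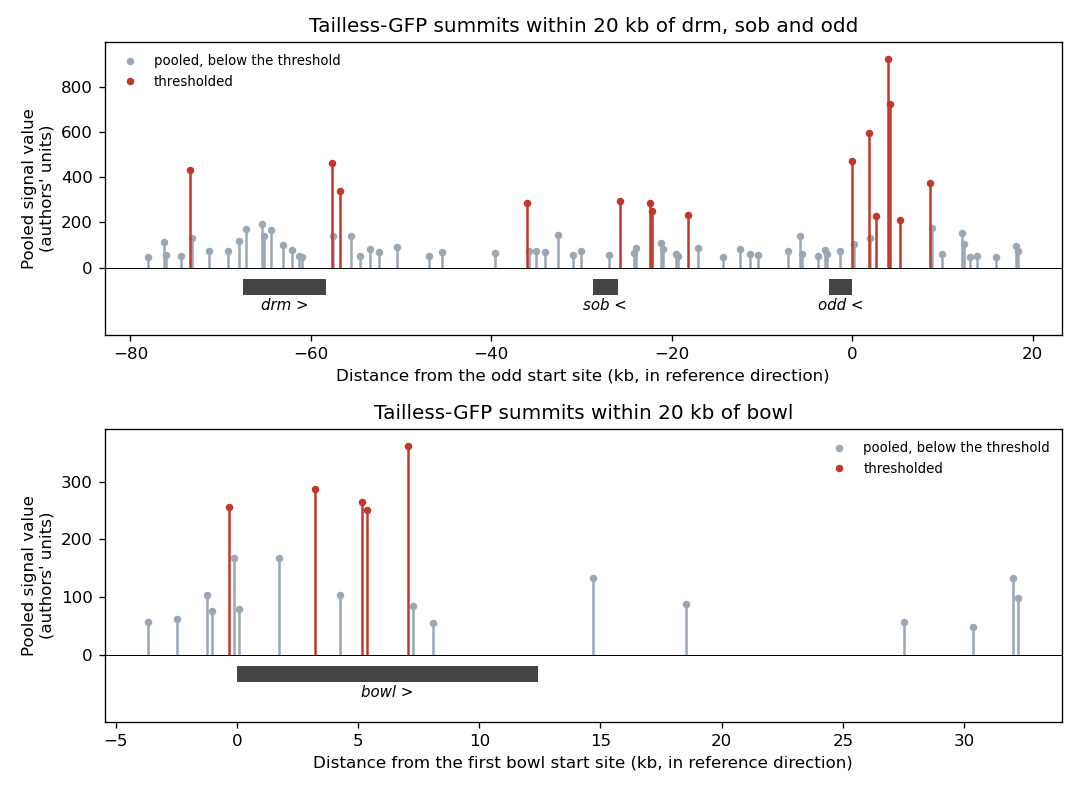
Pooled signal value of every Tailless-GFP summit within 20 kb of drm, sob and odd (top) and of bowl (bottom) against distance in kb, with thresholded summits in red, the others in grey, and gene bodies as dark bars with an arrow for the direction of transcription. The tallest stems, at 922 and 724, stand upstream of odd, while the thresholded stems of bowl lie between 251 and 362 at the promoter and inside the gene.

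The 3 thresholded summits nearest to drm lay outside its gene body. The strongest, at position 3549054, was 631 bp beyond the 3′ end of the gene in intergenic sequence, with a pooled value of 462 (rank 798) and replicate values of 219.9 and 223, the closest match between replicates at drm. A summit 1554 bp beyond the gene at position 3549977 had a pooled value of 338, with 195 in replicate 1 and 139 in replicate 3. The upstream summit at position 3533359, 5888 bp from the first drm start site, had a pooled value of 433 with replicate values of 244 and 203. Among protein-coding genes its nearest start site was that of IFT57, a gene of intraflagellar transport, 2570 bp away.

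Inside drm the replicates ranked different summits highly, and all 6 pooled summits in its introns are given here. The pooled summit in a drm intron at position 3539552, 181 bp from the nearer drm start site, had 50.8 in replicate 1 and 138 in replicate 3, a log2 ratio of replicate 1 to replicate 3 of -1.45. Replicate 1 was higher at position 3541343 with 134 against 65.4 (log2 ratio 1.03) and at position 3543616 with 80.6 against 26.9 (1.58). At position 3542377 replicate 1 had 119 against 35.0 (1.77) at the nearest summit of replicate 3. Replicate 3 had a stronger summit of 73.1 at position 3542156, which was not the one matched, so the value of 1.77 depends on the matching. The values were closer at position 3541543, with 56.2 against 46.4 (0.28), and at position 3544654 replicate 3 had 73.5 and replicate 1 had no matching summit. Among all 14811 summits below the threshold that were matched in both replicates, the central 95% of this ratio ran from -1.18 to 1.42, so the values at positions 3539552, 3542377 and 3543616 lie outside it. Near the other genes the same held at position 3619125 near odd (-1.31) and at position 3770470 near bowl (-1.34), out of 46 summits of the family below the threshold with a match in both. None of these intronic summits passed the threshold in the pooled list, and the one with 192 at position 3541343 ranked 4139, just under the lowest thresholded value of 194.6. The replicate lists, each limited to its 4045 strongest summits, placed 5 summits nearest to drm in replicate 1, with 2 of them intronic at 2155 and 3157 bp from the first start site, and 4 in replicate 3, with 1 of them intronic at 343 bp.

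**Figure D2:**
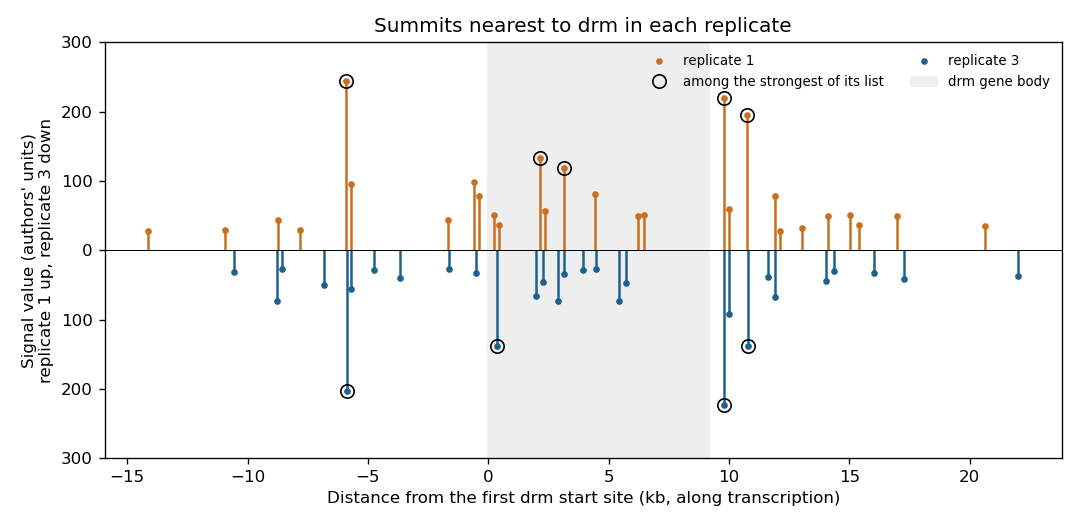
Signal value of the summits nearest to drm in replicate 1 (up) and replicate 3 (down) against distance from the first drm start site in kb, with the gene body shaded and circles around summits among the 4045 strongest of their own list. The 3 flanking summits that passed the threshold are circled in both replicates, while the circled intronic summits differ, at 134 and 119 in replicate 1 and 138 in replicate 3.

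Signal at sob was lower and spread over its upstream region. The summit at the sob promoter, position 3581028 and 259 bp upstream of the start site, had a pooled value of 295 (rank 1941), 171 in replicate 1 and 128 in replicate 3. Pooled summits 3561 and 3761 bp upstream, at positions 3584330 and 3584530, had values of 285 and 248. Replicate 1 had a single summit for both, at 168, and replicate 3 had 133 and 130.2.

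A summit 7828 bp upstream of sob at position 3588597, in an exon of lncRNA:CR43823, had a pooled value of 232. Its replicate values of 146 and 73.5 gave the largest log2 ratio among the 20 thresholded summits of the family, 0.99. Its rank in replicate 3 (6626) lay outside the 4045 strongest. Downstream of sob, position 3570687 had 286 in the pooled list with 125 and 167 in the replicates. Among protein-coding genes its nearest start site was that of CG43815 at 5523 bp. The 3 summits at 3584330, 3584530 and 3588597 lie within 20 kb of odd as well as of sob and are counted for both genes below.

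At bowl the thresholded summits lay at the promoter and in introns. The strongest, at position 3778744 in an intron, was 194 bp from an internal start site of bowl, with a pooled value of 362 (rank 1301) and replicate values of 188 and 172. The promoter summit at position 3771390, 310 bp upstream of the first start site, had 256 in the pooled list and 129.9 and 133 in the replicates. Intronic summits at positions 3774934, 3776854 and 3777075 had pooled values of 288, 266 and 251. In replicate 1 these had 116, 132 and 132, and in replicate 3 they had 156, 158 and 112.

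Ordered by their strongest summit, the genes ran odd, drm, bowl and sob. On the log2 scale the mean of the replicate values was 8.87 ± 0.039 at odd, 7.79 ± 0.017 at drm, 7.49 ± 0.091 at bowl and 7.21 ± 0.30 at sob (SD, n = 2 each). The gap between bowl and sob is smaller than the spread between replicates at sob. With 2 replicates of 1 group no test of these gaps was run. Each of the 4 genes also had a summit within 310 bp of one of its start sites, of which those of odd, sob and bowl were thresholded and that of drm, at 169.98 in the pooled list, was not.

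Counted within 20 kb of each gene body, odd had 10 thresholded summits, sob and bowl 5 each and drm 3. Of 18 neighbouring pairs among the family's thresholded summits, 3 lie 190 to 230 bp apart. These are 3610704 and 3610903 at odd, 3584330 and 3584530 at sob, and 3776854 and 3777075 at bowl. Whether they are separate sites was not tested. At least 1 thresholded summit stood within 20 kb of 64.7% of all 13945 protein-coding genes, so having one is common. As many as at odd were found at 0.904% of protein-coding genes, as many as at sob at 8.76%, as many as at bowl at 8.76%, and as many as at drm at 25.4%. The median over all these genes was 1.

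Counts in the longer lists followed a different order for drm. In the pooled list odd had 37 summits within 20 kb, drm 28, sob 27 and bowl 21, against a median of 12 over all protein-coding genes. Of all these genes 1.39% had as many as odd, 5.36% as many as drm, 6.19% as many as sob and 16.0% as many as bowl. The list of replicate 1 held 31, 32, 24 and 18 summits for odd, drm, sob and bowl, and that of replicate 3 held 40, 31, 31 and 17.

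By the height of the strongest summit, the genes took other places among all genes. A strongest pooled summit at least as high within 20 kb was found at 3.92% of protein-coding genes for odd, 19.2% for drm, 29.4% for bowl and 40.3% for sob. Genes that lie close together share summits and long genes have wider windows, so these shares describe the position of each gene in the distribution and are no test.

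**Figure D3:**
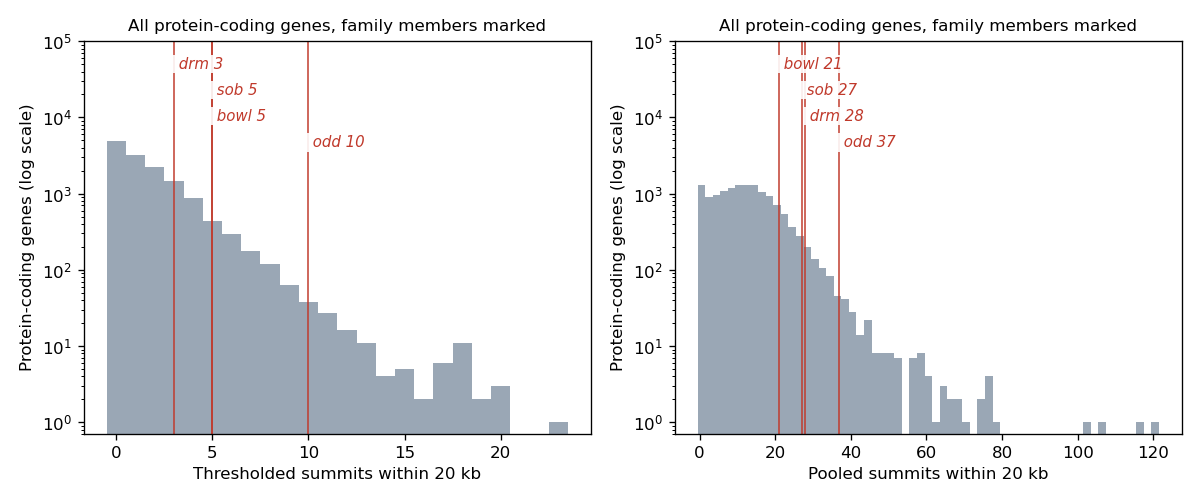
Number of protein-coding genes (log scale) by the number of thresholded (left) and pooled (right) summits within 20 kb of the gene body, with the 4 family members marked by red lines. The line of odd stands at 10 and 37, in the upper tail of both distributions, while drm has 3 thresholded but 28 pooled summits.

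Per length of sequence, the joint window of drm, sob and odd (107.51 kb) held 1.40 thresholded and 7.07 pooled summits per 10 kb, and that of bowl (52.422 kb) 0.954 and 4.01. Over the 6 chromosome arms the lists held 0.302 and 2.24 per 10 kb. Of the 20 thresholded summits 14 were intergenic, 4 in introns, all of bowl, 1 in a 5′ UTR and 1 in a non-coding exon. The intergenic share of 70.0% (exact Clopper-Pearson 95% interval 45.7 to 88.1%) stands beside 40.9% of all thresholded summits. Of the 97 pooled summits near the genes 57.7% were intergenic. The intergenic share of the windows themselves was not measured, so the 70.0% cannot be read as a trait of the binding. Coding sequence held 0 of the 20, which allows a share of up to 15.0% when a count of 0 is taken to allow 3 counts (exact upper limit 16.8%), against 1.53% of all. These intervals cover counting error only, and neighbouring summits are not independent.

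Replicate values at these 20 summits were compared next. Each pooled summit was matched to the nearest replicate summit at most 200 bp away, and all 20 had a match in both. The log2 ratio of replicate 1 to replicate 3 had a median of 0.24 and ranged from -0.80 at position 3609415 near odd to 0.99 at position 3588597 near sob. Over all 4013 thresholded summits with a match in both, its median was 0.15 and the central 95% ran from -0.84 to 1.33, which holds all 20. The value was higher in replicate 1 at 6 of 7 summits nearest to odd, 4 of 5 at sob, 2 of 3 at drm and 2 of 5 at bowl, beside 63.4% of those 4013 summits. Of the 97 pooled summits near the genes, 66 (68.0%) had a match in both replicates and 4 in neither, beside 62.7% with both among all pooled summits.

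**Figure D4:**
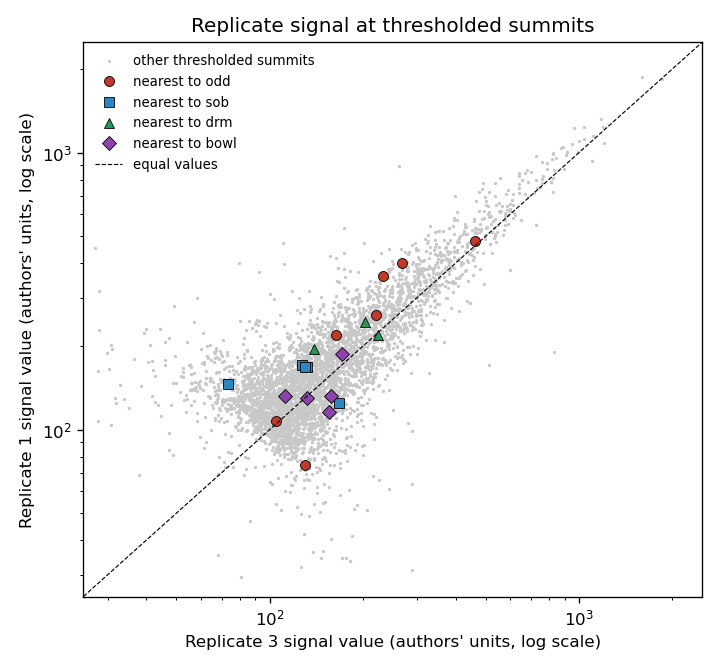
Signal value in replicate 1 against replicate 3 (both log scales) at the thresholded summits with a match in both, with the 20 near the family in colour by nearest gene, all others in grey and equal values on the dashed line. The odd summit at 478 and 460 is the highest of the coloured points, and the coloured points fall within the grey cloud.

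Words were counted within 50 bp of the summits to describe the sequence under them. AAGTCA, the Tailless word, was found at 2 of 20 thresholded summits near the family (10%, exact 95% interval 1.23 to 31.7%), both of them upstream of odd, and at 15.0% of all thresholded summits. The interval holds the share of all summits, so a difference was not detectable with 20 summits. In the pooled list AAGTCA was found at 11 of 97 (11.3%, 5.80 to 19.4%) beside 9.89% of all. The longer AAAGTCA was found at 1 of 20 thresholded summits, at position 3608570, beside 8.31% of all.

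Both windows with AAGTCA belong to 1 called interval, which spans positions 3608260 to 3610027 upstream of odd. Their words lie 40.5 bp above and 28.5 bp below the summit, measured to the middle of the word. The strongest odd summits, at 3610704 and 3610903, had no AAGTCA even within 250 bp. In that wider window, an alternative chosen with the values in view, the word was present at 3 of the 20 thresholded summits (15.0%, exact 95% interval 3.21 to 37.9%) beside 39.3% of all thresholded summits. In the pooled list it was present at 25 of 97 (25.8%, 17.4 to 35.7%) beside 32.2% of all, a share that this interval holds. The summit at 3608570 had 3 copies there, that at 3609415 had 1 and that at 3549977 beyond drm had 1, and none of the 10 thresholded summits nearest to sob and bowl had any.

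Other words were counted in the same way. CAGGTA, bound by the early activator Zelda, was at 0 of 20 thresholded summits, which by the same 3 counts allows a share of up to 15.0% (exact upper limit 16.8%), beside 7.24% of all, and at 4 of 97 pooled summits (4.12%) beside 4.01%. TTTATG, the Caudal word, was at 4 of 20 (20%, exact 95% interval 5.73 to 43.7%) beside 12.3% of all thresholded summits, and all 4 were among the 7 nearest to odd. The interval holds the share of all, and in the pooled list the word was at 10 of 97 (10.3%) beside 11.1% of all. GAGAGA was at 2 of 20, at 3581028 and 3584530 near sob, beside 6.97% of all (exact 95% interval of the family's share 1.23 to 31.7%). TAATCC, the Bicoid word, was in 2 copies at position 3774934 in the bowl intron and at no other thresholded summit of the family, which is 1 of 20 beside 4.62% of all. AGGTCA, TATCGATA and CAGTAGC, a word bound by Odd-skipped zinc fingers in one-hybrid selections, were at 0 of 20 beside 3.71%, 1.71% and 0.94% of all thresholded summits. In windows centred 500 bp to either side of all thresholded summits, TTTATG was in 11.5% and TAATCC in 4.39%, close to their shares at the summits. The shares there were lower than at the summits for CAGGTA (2.74%), GAGAGA (4.30%), AGGTCA (2.32%), TATCGATA (0.222%) and CAGTAGC (0.643%). The family's thresholded summits had a median of 43.6% G and C within 50 bp, beside 44.6% over all, with medians of 52.5% at odd and 38.6% at bowl.

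The genes were set beside other segmentation and gut genes by the same count. All 11 genes in the list drawn up for the pair-rule class had a thresholded summit within 20 kb of the gene body, with a median of 9 summits. Over all protein-coding genes the share was 64.7% and the median 1. Whether each gene of the list, Ptx1 included, belongs to the pair-rule class was not tested. The highest signal values in that list were 3700 at ftz and 3460 at prd, both homeodomain genes, 2252 at eve, a homeodomain repressor gene, and 2194 at opa, a zinc finger gene. With 922, odd stood at place 6 of 11, between hry (1004) and run (899.8), which encode repressors, and the lowest values were those of Ptx1 (339.9) and ftz-f1 (259). The genes slp1 and slp2 share their strongest summit.

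In a list of 13 genes of the Drumstick, Lines and Bowl relation and of gut patterning, all 13 had a thresholded summit within 20 kb, with a median of 8. Over all protein-coding genes the share was 64.7% and the median 1. The highest values were 1480 at hh, which encodes the Hedgehog ligand, 1222 at upd1 and upd3, ligand genes of the JAK/STAT pathway that share this summit, and 854 at upd2. The family members drm (462) and bowl (362) stood at places 10 and 12 of 13. The gene lin, which encodes the partner that Drumstick binds, was lowest with 222, and among the 4045 strongest summits of replicate 1 it had 0.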

How the data were processed

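ChIP-seq with an antibody to GFP was done in 2 biological replicates of embryos of 0 to 4 h, and 4 peak lists (dm6) were deposited, namely 1 per replicate, 1 pooled and 1 thresholded by the irreproducible discovery rate. Per the accompanying text, each replicate list came from that replicate's alignment and 1 control alignment. No source used here names an aligner or peak caller. Signal values, as deposited, are the caller's value per summit on an unstated scale. The −log10 q-value the authors deposited is at most 4.26 in the pooled list, a ceiling many summits share, and was not used. The deposited summit offset, stored as a score column, gave each summit position. Read counts were not used here, so depth is unknown, and lists of 30000 summits limit what lies below them. The thresholded list held the 4045 strongest pooled summits.

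Summits were assigned within 20 kb of gene bodies in Python 3.11.15 (pandas 2.3.3, scipy 1.17.1, numpy 2.4.6), with gene positions from Ensembl release 115 and sequence from RefSeq's Release 6 assembly, which is dm6. Figures were drawn with matplotlib 3.10.9. Words were searched on both strands. Counting was checked on made-up summits and sequences. No test was run, since there was 1 group, and intervals are exact binomial 95% intervals, a count of 0 is also given the limit of 3 counts, and both cover counting error only. The genes and lists were chosen with earlier results of these data known. Named genes were the 4 members, the genes whose start site was nearest to a thresholded summit, the 4 strongest genes and any without a summit in each list, and 3 genes per member with the same count and the closest strongest value. For the nearest start site only protein-coding genes were considered, so a non-coding gene may start nearer. Others (hry, run, Ptx1, ftz-f1, slp1, slp2 and lin) were named after their values were seen. Alternatives were other distances, lists, windows and 1 summit per interval.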

Additional observations from a re-analysis of the deposited data

How the results depend on the processing

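Of 91 alternatives, 56 left the value within 1.5 times the count, 1 SD between replicates or the exact interval, and 35 moved it. The cause was not tested beyond what each alternative itself changes. Some outcomes were fixed in advance, so the tally is no measure of robustness. Without 1 replicate the strongest values had to fall, since the pooled value is about the sum of both. Division by the list median shifts every log2 ratio by the same amount. Within 50 kb thresholded counts were 15 at sob, 8 at drm and 14 at bowl, pooled counts 61, 78, 56 and 45 at odd, sob, drm and bowl, and the strongest value 922 at sob, which is the summit upstream of odd, and 842 at bowl, which is that of slp1 and slp2. Within 10 kb odd had 20 pooled summits. Within 5 kb thresholded counts were 5 at odd and 3 at sob, and pooled counts 14, 10 and 17 at odd, sob and drm. The share of genes with a thresholded summit was 48.3%, 35.7% and 85.4% within 10, 5 and 50 kb. Among the strongest 50% of the thresholded list odd had 5 summits, sob 1 and bowl 2.

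Leaving out 1 replicate gave thresholded counts of 8 to 10 at odd, 4 at sob, 4 to 5 at drm and 5 at bowl from the strongest summits of the other. At drm, the 3 thresholded summits thus became 5 without replicate 3. Pooled counts ran from 31 to 40 at odd, 24 to 31 at sob, 31 to 32 at drm and 17 to 18 at bowl. Strongest values ran from 460 to 478 at odd, 167 to 171 at sob, 223 to 244 at drm and 172 to 188 at bowl, on the scale of 1 replicate, about the sum of which is the pooled value (median ratio 0.991). At drm and sob these were different summits. For drm the strongest was upstream at position 3533346 in replicate 1 and beyond the gene at position 3549054 in replicate 3. For sob it was at the promoter, position 3581023, in replicate 1 and downstream at position 3570706 in replicate 3. The share of genes with a summit was 63.5 to 64.5%. With signal divided by the list median, the log2 ratio of the replicates at the strongest summit was -0.078 at odd, -0.16 at drm and -0.0034 at bowl, in place of 0.055, -0.023 and 0.13. AAGTCA was within 25 bp of 3.09% of pooled summits near the genes, in place of 11.3% within 50 bp. Counts of 20 summits leave wide intervals, and the depth behind the signal values is unknown.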

Other observations

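Among summits under the threshold, 5 of 24 nearest to drm had AAGTCA at most 50 bp away (20.8%, exact 95% interval 7.13 to 42.2%), as had 2 of 16 at sob (12.5%), 1 of 16 at bowl (6.25%) and 1 of 21 at odd (4.76%). Over the whole pooled list the share was 9.89%, which the interval of drm holds. CAGGTA lay within 50 bp of 3 of the 24 at drm (12.5%, 2.66 to 32.4%), 1 of the 21 at odd and 0 of 16 at each of sob and bowl (exact upper limit 20.6%), beside 4.01% of the pooled list, which the interval at drm holds too. The AAGTCA summits of drm included 2 in introns, at positions 3542377 and 3544654, with pooled values of 168 and 78.6. At position 3544654 the word was 8 bp from the summit, and the summit had a match in replicate 3 (73.5) but none in replicate 1. Near odd, the summit at position 3596308 had AAGTCA in 2 copies at a pooled value of 53.3, and near bowl the summit at position 3770671 had AAAGTCA at 76.3.

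Just beyond the 20 kb limit of bowl stood thresholded summits at 20645 and 22379 bp from the gene body, with pooled values of 346 and 195, while the last summits inside the limit, at 19599 and 19822 bp, had 132 and 97.8. At odd the last summits inside, at 18132 and 18426 bp, had 93.2 and 75.1, and the first outside, at 21004 and 22406 bp, had 49.4 and 187.

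Genes with the same number of thresholded summits as a member and the closest strongest pooled value, over the 2 pooled replicates, were CG42538, CG42716 and CG5895 for odd, which share 1 summit of 906. They were Rpn12, UQCR-C2 and fz for sob, CG7953, CG6845 and Pdk1 for drm, and Bacc, HemK2 and Pgk for bowl, each within 0.03 of the member on the log2 scale.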
